A study of Mus musculus with 18 samples.

Results

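The muscle ankyrin repeat and stretch-response genes are a small group of sarcomeric and signalling genes, Ankrd1, Ankrd2, Ankrd23, Csrp3, Xirp1 and Fhl1. They were chosen by name, and every probeset whose platform annotation gives 1 of these symbols, current or older, was taken, which found 8 probesets of the 6 genes among 45037 probesets and 18193 named genes on the MOE430A and MOE430B chips. Ankrd1 and Fhl1 had 2 probesets each and the other genes had 1. The study asked how the β2-adrenergic agonist clenbuterol, which enlarges skeletal muscle, affects mRNA abundance after short and long administration. Gracilis, a thigh muscle (spelled gracillus in the labels), was taken from C57BL/6J male mice of 3 to 5 wk of age. All groups received an intraperitoneal injection daily for 10 days, and tissue was collected 24 h after the last one. The 24 h group received 9 vehicle injections and then 1 of clenbuterol at 1 mg/kg, the 10 D group received 10 of clenbuterol at 1 mg/kg, and the control group (C) received 10 of vehicle. Each group had 3 RNA pools of 3 mice, each pool hybridised to both chips, and the mice had been selected for their blood urea nitrogen and weight gain. Cages were assigned whole to treatments, so that pools of a group can share cages, and p-values measure the spread between such pools.

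The ankyrin repeat proteins encoded by Ankrd1 (CARP), Ankrd2 (Arpp) and Ankrd23 (DARP) bind the N2A region of titin, the giant spring protein of the sarcomere, and can also be found in the nucleus, where they act on transcription. Their mRNAs are known to respond to stretch, injury and loading of muscle. Csrp3 encodes muscle LIM protein, which lies at the Z-disc with telethonin and α-actinin and also enters the nucleus. Xirp1 encodes Xin, an actin-binding repeat protein linked to muscle damage and repair, and Fhl1 encodes a four-and-a-half LIM domain protein of the sarcomere that is linked to muscle growth and to inherited myopathies.

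Each level is a probeset's signal over its array median, so that a level of 1 is the array median. Median signals were 30.8 to 88.4 on MOE430A and 13.2 to 37.1 on MOE430B. The 7 skeletal muscle fibre markers were all measured, and their summed level was 1268 to 1597 in 24 h pools, 1048 to 1813 in 10 D pools and 1406 to 2278 in C pools. Of 7 cardiac muscle markers, Myh6 and Tnni3, which define cardiac muscle, were too dim to be tested, and the other 5 summed to 3.60 to 4.94 in 24 h pools, 2.51 to 5.99 in 10 D pools and 3.63 to 4.80 in C pools. Pool 2 of the 24 h group lay below pools 1 and 3 of that group for Ankrd1, Ankrd2, Csrp3 and Xirp1, and results that rest on it are therefore given with and without it. Its MOE430A array was also the dimmest of the 24 h group, with medians of 62.1, 35.7 and 51.1 in 24 h pools 1, 2 and 3, 88.4, 33.6 and 46.6 in 10 D pools, and 30.8, 64.95 and 42.8 in C pools. The summed fibre marker level was highest in C pool 1, where that median was lowest, and lowest in 10 D pool 1, where it was highest. Of the 33752 probesets tested, 0.456% were called at 24 h against C, 0% at 10 D against C, and 0.0504% at 10 D against 24 h, where called means an adjusted p under 0.1 by limma. The F test over the 3 groups called 0.216%.

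Ankrd1, the stretch-induced ankyrin repeat gene that heart muscle also expresses, had the widest spread of the 6 genes over the 9 pools, 39.9-fold for its brighter probeset, 1420992_at. Its level was 12.8, 0.986 and 2.43 in the 24 h pools, 0.691, 0.438 and 0.50 in the 10 D pools, and 0.513, 0.322 and 0.678 in the C pools. All 24 h pools lay above all C pools, but pool 1 was far above the other two, and the 10 D and C pools overlapped. Levels averaged 5.42 ± 6.46 in 24 h pools, 0.543 ± 0.132 in 10 D pools and 0.504 ± 0.178 in C pools (SD, n = 3 each), and the 24 h change against C was 2.70 on the log2 scale (SE 0.75, 95% interval 1.03 to 4.37). The unadjusted p was 0.0047 and the limma adjusted p was 0.27, so that this change did not pass the threshold. The signals in the C pools were 15.8, 20.9 and 29, near the filter on dim probesets at 14.1, so that the level this change is measured from lies near the lowest signals that were tested. In whole muscle, a lower level from fewer cells of a type and one from less RNA per cell cannot be told apart.

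The second Ankrd1 probeset, 1420991_at, gave levels of 8.02, 0.563 and 2.97 in the 24 h pools, 0.723, 0.128 and 0.667 in the 10 D pools, and 0.536, 0.232 and 0.701 in the C pools. Here 24 h pool 2 lay within the C range, while pools 1 and 3 lay above it. The change at 24 h was 2.42 (SE 0.95, unadjusted p = 0.028, limma adjusted p = 0.50). It was as dim in the C pools, with signals of 16.5, 15.1 and 30, and its signal of 4.3 in 10 D pool 2 was below the filter. Both Ankrd1 probesets thus had the same order of pools at 24 h, with pool 1 highest and pool 2 lowest.

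Ankrd2, the family member of slow fibres whose mRNA is known to respond to stretch and denervation, had levels of 33.5, 6.25 and 27.5 in the 24 h pools, 6.68, 3.63 and 5.85 in the 10 D pools, and 10.7, 8.21 and 7.82 in the C pools. The 24 h pools fell on both sides of the C pools, with pools 1 and 3 above and pool 2 below, and all 10 D pools lay below all C pools. Its 24 h change was 1.03 (SE 0.54, 95% interval -0.18 to 2.23, limma adjusted p = 0.66) and its 10 D change was -0.76 (95% interval -1.96 to 0.45, unadjusted p = 0.19). Neither passed the threshold.

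Ankrd23, the diabetes-related ankyrin repeat gene, was measured on MOE430B at levels of 75.6, 96.4 and 115 in the 24 h pools, 55.96, 40.03 and 68.5 in the 10 D pools, and 66.5, 56.7 and 71.5 in the C pools. All 24 h pools lay above all C pools, and pool 1, not pool 2, was the lowest of them. The 24 h change was 0.55 (SE 0.33, 95% interval -0.18 to 1.27, limma adjusted p = 0.70), and the 10 D change was -0.27 (95% interval -0.997 to 0.46).

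Csrp3, the muscle LIM protein gene, was measured at 45.2, 13.6 and 33.0 in the 24 h pools, 10.6, 12.3 and 11.0 in the 10 D pools, and 10.6, 9.09 and 11.6 in the C pools. All 24 h pools exceeded all C and all 10 D pools, with pool 2 only just above them, whereas the 10 D and C pools overlapped. Levels averaged 30.6 ± 15.9 in 24 h pools, 11.3 ± 0.895 in 10 D pools and 10.4 ± 1.27 in C pools (SD, n = 3 each). The 24 h change was 1.40 (SE 0.37, 95% interval 0.57 to 2.23) with the smallest unadjusted p of the 8 probesets, 0.0037, and a limma adjusted p of 0.25. At 10 D the change was 0.12 (95% interval -0.71 to 0.95), so that these data do not separate 10 D from C for Csrp3.

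The promoters of Ankrd1, Ankrd2 and Csrp3, the members with the widest range of levels over the pools, are shown because these genes had the same order of pools at 24 h. The sequences are those of RefSeq on GRCm38.p6, given 5′ to 3′ on the strand of the gene, up to the annotated start. Capitals mark matches on either strand to the TEAD core CATTCC (read as GGAATG on the other strand) and to the E-box CANNTG. Ankrd1 is shown from chr19:36119845-36120094 (minus strand), Ankrd2 from chr19:42035777-42035916 (plus strand) and Csrp3 from chr7:48848052-48848301 (minus strand).
Ankrd1: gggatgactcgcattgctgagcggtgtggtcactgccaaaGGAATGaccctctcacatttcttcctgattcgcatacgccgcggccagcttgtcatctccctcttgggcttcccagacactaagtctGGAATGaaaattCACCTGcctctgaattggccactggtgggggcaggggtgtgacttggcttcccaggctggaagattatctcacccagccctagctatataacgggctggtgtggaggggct
Ankrd2: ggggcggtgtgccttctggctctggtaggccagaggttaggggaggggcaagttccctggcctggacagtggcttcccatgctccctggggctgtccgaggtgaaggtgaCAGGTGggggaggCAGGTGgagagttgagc
Csrp3: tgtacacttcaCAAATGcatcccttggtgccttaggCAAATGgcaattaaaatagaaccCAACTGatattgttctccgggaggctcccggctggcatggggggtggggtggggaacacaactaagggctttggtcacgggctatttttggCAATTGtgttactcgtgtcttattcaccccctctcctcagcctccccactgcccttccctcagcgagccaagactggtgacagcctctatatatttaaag
The Ankrd1 promoter held 2 TEAD cores, 210 and 123 bases before the start, and 1 E-box, 111 bases before it. A TEAD core was found in 12.6% of 32851 promoter windows of 250 bases, and 2 or more in 1.02%. The Ankrd2 window of 250 bases held 3 E-boxes, of which the 2 that lie outside the annotated gene are shown, and the Csrp3 window held 4. At least 1 E-box was found in 66.2% of all windows, and 2 or more in 31.8%. No TEAD core was found for Ankrd2, Csrp3 or Fhl1, and Ankrd23 had 1 at the second of its 2 starts, 120 bases before it. The Fhl1 windows both lie within the annotated gene, so that the sequence before its first base was not searched. The cAMP response element TGACGTCA, the motif of the factor CREB that acts downstream of β-adrenergic receptors, was found in none of the 8 start-site windows of the 5 genes with an entry, and in 1.55% of all windows. Its shorter form CGTCA was found once, at the second Csrp3 start, and in 17.8% of all windows. Such matches describe the letters only.

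Xirp1, the Xin gene, had levels of 14.4, 3.90 and 10.4 in the 24 h pools, 4.39, 4.22 and 4.89 in the 10 D pools, and 6.86, 7.49 and 6.08 in the C pools. Pools 1 and 3 at 24 h lay above every C pool and pool 2 lay below every C pool, while the 10 D pools were close to each other and all below C. The 24 h change was 0.30 (95% interval -0.59 to 1.19, limma adjusted p = 0.89) and the 10 D change was -0.59 (95% interval -1.48 to 0.29, unadjusted p = 0.17).

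Fhl1 was measured by 1417872_at at 102, 116 and 131 in the 24 h pools, 72.6, 107 and 97.1 in the 10 D pools, and 97.3, 71.8 and 99.99 in the C pools. The 24 h pools were all above the C pools, by a narrow margin for pool 1, with a change of 0.39 (SE 0.23, 95% interval -0.13 to 0.90, limma adjusted p = 0.70). The dimmer probeset 1459003_at, on MOE430B, ranged from 1.28 to 2.66 in 24 h pools, 1.49 to 2.13 in 10 D pools and 1.30 to 1.62 in C pools, and its groups overlapped. Its 24 h change was 0.37 (limma adjusted p = 0.82).

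**Figure D1:**
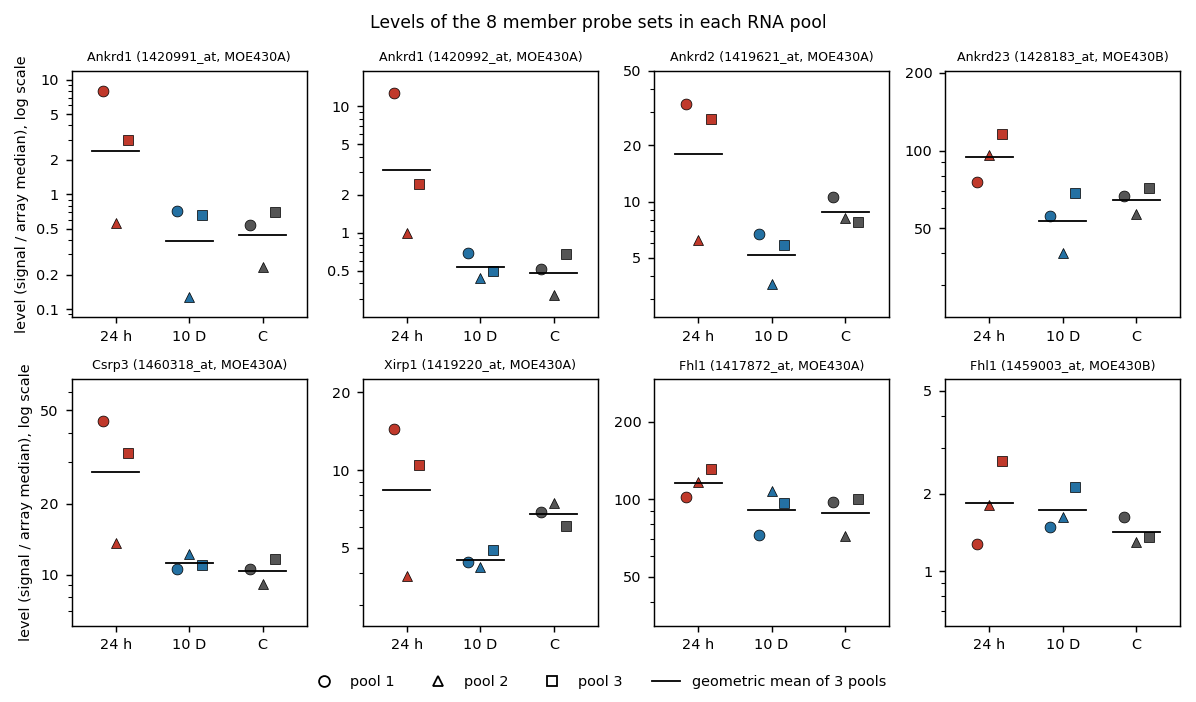
Level of each of the 8 probesets (signal divided by array median, log axis) in the 3 pools of the 24 h, 10 D and C groups, with pool numbers as symbols and the geometric mean of each group as a line. For both Ankrd1 probesets, Ankrd2, Csrp3 and Xirp1, 24 h pool 2 (triangle) lies below pools 1 and 3.

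At 24 h against C, all 8 probesets had a positive log2 change, with a median of 0.79, against 0.02 over the 33752 probesets tested. None was called at an adjusted p under 0.1 by limma, beside 0.456% of all probesets. None was called by an analysis of variance without moderation either, for which the calls over all probesets are given in the last section. At an unadjusted p under 0.05, 3 of the 8 passed, both Ankrd1 probesets and Csrp3, beside 8.55% of all probesets. The 24 h pools lay wholly above the C pools for 4 of the 8 (1420992_at of Ankrd1, Ankrd23, Csrp3 and 1417872_at of Fhl1), beside 9.6% of all probesets. With 3 pools on each side, the smallest two-sided p that exact permutation of 1 probeset allows is 0.1.

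Against the same C pools, the 10 D changes were small and mixed in sign. Of the 8 probesets 4 were higher and 4 lower, with a median log2 change of -0.06 against 0.01 over all probesets tested. None passed, at an adjusted p under 0.1 by limma or at an unadjusted p under 0.05, beside 0% and 4.56% of all probesets. The 10 D pools lay wholly below the C pools for 2 of the 8, Ankrd2 and Xirp1, beside 4.52% of all probesets. The intervals were wide, so that a 10 D change of Ankrd1 from 0.348-fold to 3.51-fold for 1420992_at lay within the 95% interval, and for Csrp3 from 0.611-fold to 1.93-fold.

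**Figure D2:**
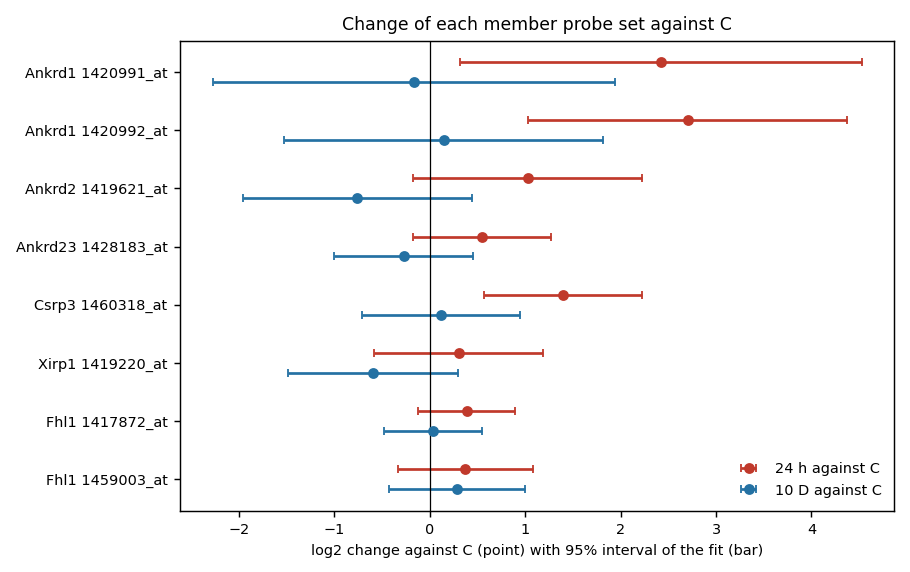
Log2 change of each probeset at 24 h and at 10 D, both against C, with 95% intervals of the limma fit as bars. The 24 h intervals exclude 0 for both Ankrd1 probesets and Csrp3, and every 10 D interval includes 0.

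In the direct comparison of 10 D with 24 h, all 8 log2 changes were negative, with a median of -1.09 against -0.01 over all probesets tested. The size differed between genes. The change was -2.56 and -2.59 for the Ankrd1 probesets 1420992_at and 1420991_at, -1.78 for Ankrd2, -1.28 for Csrp3, -0.90 for Xirp1 and -0.82 for Ankrd23. Without 10 D pool 2, that of 1420991_at was -1.78, and without 24 h pool 1 those of 1420992_at and 1420991_at were -1.54 and -1.71. The 6 probesets had an unadjusted p under 0.05, beside 5.48% of all probesets, whereas the changes of Fhl1 were -0.35 and -0.09. By limma, none was called at an adjusted p under 0.1, with adjusted p-values of 0.62 or more. The 10 D pools lay wholly below the 24 h pools for 3 of the 8 (1420992_at of Ankrd1, Ankrd23 and Csrp3), beside 5.1% of all probesets. The comparison uses the same 24 h pools as that of 24 h with C, so it is not a second measurement of them. By the F test over the 3 groups, 4 of the 8 had an unadjusted p under 0.05 (both of Ankrd1, Ankrd2 and Csrp3), beside 6.62% of all probesets, and none was called by limma.

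The 24 h group was not uniform for these genes, and its pools 1, 3 and 2, from highest to lowest for Ankrd1, Ankrd2, Csrp3 and Xirp1, stood in the same order by array median. The highest 24 h pool exceeded the lowest 13.0-fold and 14.2-fold for the Ankrd1 probesets 1420992_at and 1420991_at, 5.35-fold for Ankrd2, 3.69-fold for Xirp1 and 3.32-fold for Csrp3, but 1.53-fold for Ankrd23 and 1.29-fold for 1417872_at of Fhl1. Of all probesets tested, 0.803% had a 24 h range as wide as 1420992_at of Ankrd1, 6.38% one as wide as Ankrd2 and 14.6% one as wide as Csrp3. In pool 2 the level was at most 0.5 times the lower of pools 1 and 3 for 5 of the 8 probesets, beside 9.49% of all probesets. In pools 1 and 3 it was at least 2-fold over the highest C pool for 4 of the 8 (both of Ankrd1, Ankrd2 and Csrp3), beside 0.628% of all probesets, and both held for those 4, beside 0.184%. Pool 2 of the 10 D group, also the dimmest of its group, was the lowest 10 D pool for 5 of the 8, beside 41% of all probesets. Over the probesets tested on MOE430A, 24 h pool 2 and 10 D pool 2 deviated together from their group means, with a correlation of 0.56. C pool 1 was the dimmest C array and was not the lowest C pool for Ankrd1, Ankrd2 or Csrp3. This pattern was noticed in the same values and is given as a description, and the part of array brightness in it was not tested.

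The low level of 24 h pool 2 differed between muscle genes and between probesets of 1 gene. Relative to the mean of the C pools, Ankrd2 was at 3.77, 0.703 and 3.10 in 24 h pools 1, 2 and 3, and Csrp3 was at 4.34, 1.31 and 3.17. Bag3, a co-chaperone that clears damaged filamin at the Z-disc, was at 1.64, 0.335 and 1.44 on the same measure. Flnc, its filamin client, was at 2.56, 2.98 and 3.40, Vcl at 2.22, 1.97 and 2.11, and Cryab at 1.72, 1.96 and 1.73. By these probesets pool 2 was not set apart from the other two. Other probesets of the same genes differed from this. Flnc by 1449073_at was at levels of 33.6, 9.76 and 30.2 in 24 h pools 1, 2 and 3, against 13.1, 12.7 and 12.3 in C pools, and Cryab by 1416455_a_at was at 55.8, 11.3 and 50.7, against 30.1, 27.7 and 28.7 in C pools. Of 6744 genes with several tested probesets, 1573 had 1 or more with a pool 2 level of at most 0.5 times the lower of pools 1 and 3, and 44 of these, Ankrd1 among them, had it in every probeset. Both Ankrd1 probesets are annotated to the same sequence record, so that their agreement is a limited check. Ankrd2, Csrp3 and Xirp1 have 1 probeset each and cannot be checked in this way. RNA quality was not measured in the values used here, and its part was not tested. The creatine kinase gene Ckm was at 0.688, 0.951 and 0.869, and the summed slow fibre genes were at levels of 248.9, 282.7 and 304.5 in 24 h pools 1, 2 and 3, against 303.5, 374.6 and 257.3 in the C pools. The slow fibre genes as a sum thus did not have their lowest 24 h level in pool 2.

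**Figure D3:**
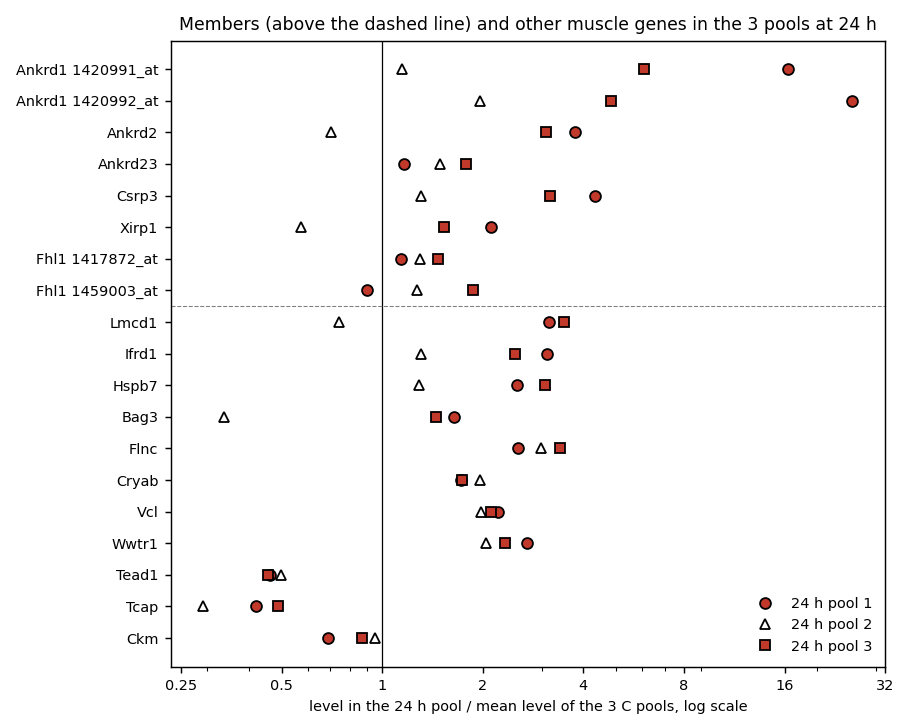
Level in each 24 h pool divided by the mean level of the 3 C pools (log axis) for the 8 member probesets, above the dashed line, and 11 other muscle genes, below it. Pool 2 (open triangle) lies well left of pools 1 and 3 for Ankrd1, Ankrd2, Csrp3, Xirp1, Lmcd1, Ifrd1, Hspb7 and Bag3, and close to them for Tead1 and for the probesets of Flnc, Cryab and Vcl plotted.

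Without 24 h pool 2, Ankrd2 and Csrp3 passed the threshold at 24 h against C. Ankrd2 changed by 1.79 (SE 0.30, limma adjusted p = 0.098) and Csrp3 by 1.90 (SE 0.23, limma adjusted p = 0.032) on the log2 scale, in a fit in which 2 pools remained at 24 h. The Ankrd1 changes were 3.46 for 1420991_at and 3.54 for 1420992_at, with limma adjusted p-values of 0.22 and 0.13, and that of Xirp1 was 0.85 (limma adjusted p = 0.32). Without that pool, 10 D against 24 h called the same 2 genes, with changes of -2.54 for Ankrd2 (limma adjusted p = 0.044) and -1.78 for Csrp3 (limma adjusted p = 0.048). Pool 2 was singled out because it was low for these same genes, so these calls are a description and not an independent test. Over all probesets, leaving out 1 pool gave 24 to 432 calls at 24 h against C and 1 to 76 at 10 D against 24 h. These ranges cover each pool left out in turn. The share called without 24 h pool 2 alone is not given, so that the calls of Ankrd2 and Csrp3 cannot be set beside it. Without 24 h pool 1, which held the highest levels, the 24 h change was 1.69 for 1420992_at of Ankrd1, 0.58 for Ankrd2, 1.03 for Csrp3 and -0.09 for Xirp1, and none was called by limma. The size of the 24 h change of these genes thus depended on pools 1 and 2.

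**Figure D4:**
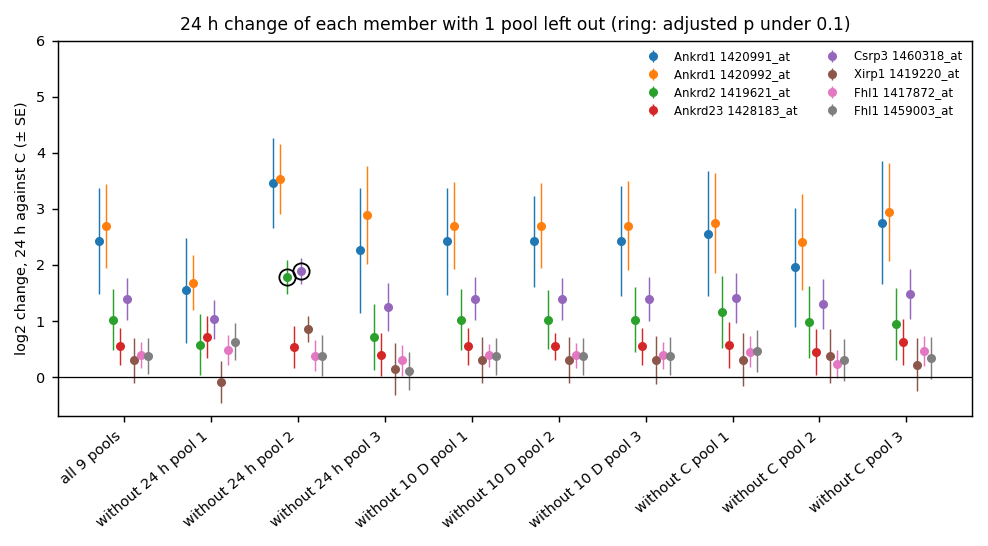
Log2 change at 24 h against C of each member probeset (points, SE as bars) with all 9 pools and with each pool left out in turn. Rings mark an adjusted p under 0.1, which is reached only for Ankrd2 and Csrp3 without 24 h pool 2.

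Among the related genes of the sarcomere and of stretch signalling, 102 of 112 were tested, each by its brightest probeset. At 24 h against C, 3 were higher (Flnc, Vcl and Wwtr1) and 1 lower (Tcap), beside 0.672% of the 15184 genes tested in this way, and at 10 D none was called by limma, beside 0%. At an unadjusted p under 0.05 the counts were 9 higher and 9 lower at 24 h, and 2 higher and 0 lower at 10 D. That threshold was met by 8.55% of all probesets at 24 h and 4.56% at 10 D. These shares are over probesets in either direction, not over genes. The median change of the related genes was -0.12 at 24 h and -0.15 at 10 D, against 0.04 and 0.03 over all genes tested. The calls at 24 h were sensitive to single pools: leaving out 1 pool gave 0 to 9 calls, and 0 without any 1 of the 24 h or C pools.

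Of the titin and Z-disc partners, 26 of 28 were tested, with 1 higher and 1 lower at 24 h. Flnc, which encodes the Z-disc actin cross-linker filamin C, rose by 1.57 (SE 0.30, limma adjusted p = 0.078). Its level was 70.96, 82.6 and 94.3 in 24 h pools, 22.5, 24.9 and 44.3 in 10 D pools, and 25.7, 26.3 and 31.2 in C pools. A second Flnc probeset, 1449073_at, gave 0.76 (limma adjusted p = 0.67). Tcap, which encodes telethonin, the titin cap that binds muscle LIM protein, fell by 1.34 (SE 0.25, limma adjusted p = 0.078). Its level was 57.5, 39.9 and 66.6 in 24 h pools, 101, 130 and 137 in 10 D pools, and 162, 121 and 127 in C pools, so that the 24 h pools were apart from all others. The chaperone gene Cryab gave 0.86 (limma adjusted p = 0.20) by its brightest probeset and 0.14 by 1416455_a_at (limma adjusted p = 0.97), and Myoz3, a calsarcin gene of fast fibres, gave -0.92 (limma adjusted p = 0.41).

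Of the LIM-only, Xin and ankyrin relatives, 13 of 17 were tested and none was called by limma at 24 h or at 10 D. At an unadjusted p under 0.05 there were 2 at 24 h and 0 at 10 D, beside 8.55% and 4.56% of all probesets. Those 2 were Ankrd27, whose product takes part in membrane trafficking, at 0.46 (limma adjusted p = 0.50), and Ankrd10 at 0.57 (limma adjusted p = 0.55). Fhl2, the relative of Fhl1 that is abundant in heart, ranged from 0.588 to 1.07 in 24 h pools, 0.1695 to 0.991 in 10 D pools and 0.234 to 1.01 in C pools, and Fhl5 gave 0.74 (limma adjusted p = 0.70).

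Of the YAP and TEAD pathway genes, through which cells are known to respond to stretch, 18 of 20 were tested and 1 was called. Wwtr1, which encodes the coactivator TAZ, rose by 1.24 at 24 h (SE 0.24, limma adjusted p = 0.096). Its level was 14.1, 10.7 and 12.2 in 24 h pools, 10.6, 7.45 and 6.20 in 10 D pools, and 5.02, 5.84 and 4.79 in C pools. The groups at 24 h and C were well apart, and the 2 other Wwtr1 probesets gave 0.74 and 0.54 (limma adjusted p = 0.35 and 0.72). Tead1, a DNA-binding partner of TAZ, gave -1.08 (limma adjusted p = 0.28) and Vgll2, a TEAD cofactor of skeletal muscle, gave -0.93 (limma adjusted p = 0.20). The Hippo kinase gene Stk4 gave 0.70 (limma adjusted p = 0.53).

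Of the stretch, overload and cardiac stress genes, 27 of 29 were tested, with 1 higher at 24 h. Vcl, which encodes vinculin of the costameres and other adhesion sites, rose by 1.07 (SE 0.18, limma adjusted p = 0.057). Its level was 29.8, 26.5 and 28.4 in 24 h pools, 24.97, 22.7 and 25.96 in 10 D pools, and 14.3, 13.6 and 12.4 in C pools. Both clenbuterol groups lay above C, although the 10 D change of 0.87 was not called (unadjusted p = 0.00059, limma adjusted p = 0.55). A second Vcl probeset, 1416157_at, was dim, with mean levels of 0.523, 0.426 and 0.306 in 24 h, 10 D and C pools. It gave 0.60 at 24 h (limma adjusted p = 0.91) and -0.20 at 10 D. Igf1, the insulin-like growth factor gene, gave 1.27 by its brightest probeset (limma adjusted p = 0.30), and its other 3 probesets gave 1.21 (1437401_at, limma adjusted p = 0.068), 0.71 (1452014_a_at, limma adjusted p = 0.26) and 0.53 (1419519_at, limma adjusted p = 0.53). Actc1, the cardiac α-actin gene, gave -0.9997 (limma adjusted p = 0.32), and Itgb1bp2, which encodes the integrin-binding chaperone melusin, gave -0.52 (limma adjusted p = 0.52). The 10 D pools of Itgb1bp2 lay above all C and all 24 h pools. Its 10 D change was 0.45 against C (limma unadjusted p = 0.061) and 0.97 against 24 h (limma adjusted p = 0.32).

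Slow and fast fibre genes were set beside the members because Ankrd2 and Csrp3 are known to be more abundant in slow fibres. None of 10 slow fibre genes and none of 12 fast fibre genes was called by limma at 24 h or at 10 D. None had an unadjusted p under 0.05, beside 8.55% of all probesets at 24 h and 4.56% at 10 D. The median change at 24 h was -0.12 for slow and -0.24 for fast fibre genes. Myh7, the slow myosin heavy chain gene, was at 25.2, 39.4 and 34.5 in 24 h pools, 30.2, 75.3 and 41.6 in 10 D pools, and 39.5, 46.1 and 34.2 in C pools. Casq2, Tpm3 and Myoz2 gave 0.11, -0.03 and -0.28 at 24 h, and of the fast genes Myh2 gave -0.89 (limma adjusted p = 0.61), Casq1 -0.40, Atp2a1 -0.43 and Tnnt3 -0.27.

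The genes whose levels followed the members most closely were found by the root mean square difference in log2 level over the 9 pools, each gene centred on its own mean, among 15183 other genes. For Csrp3 they were Hspb7 (0.282), a small heat shock protein gene of heart and skeletal muscle, Timm10 (0.347), a mitochondrial import gene, Ifrd1 (0.354), a transcriptional coregulator gene of muscle differentiation, and Mpp3 (0.359). For Ankrd2 they were Lmcd1 (0.298), a LIM domain gene, Ifrd1 (0.418), Xirp1 (0.481) and Card19 (0.494). For Ankrd1 they were Pmvk (0.844), which encodes the mevalonate pathway enzyme phosphomevalonate kinase, Csrp3 (0.853), Clstn3 (0.862) and the metallothionein gene Mt2 (0.873), with Ankrd2 6th at 0.902. The difference from Ankrd1 was large for all of these, since few genes ranged as widely. Lmcd1 was at 18.3, 4.28 and 20.2 in 24 h pools, 7.53, 2.61 and 5.06 in 10 D pools, and 6.51, 6.22 and 4.60 in C pools, with pool 2 lowest in the 24 h and the 10 D group, as for Ankrd2. Ankrd23 and Fhl1 were closer to each other (0.342) than to Ankrd1, from which they differed by 1.39 and 1.46. Fhl1 was only 630th among the genes nearest to Ankrd23, so that the pair does not stand out by this measure.

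Markers of other cell types were measured beside these changes. S100a8, a neutrophil gene, was called higher at 24 h (limma adjusted p = 0.044). It was at 2.78, 2.07 and 2.05 in 24 h pools, 1.36, 1.47 and 0.468 in 10 D pools, and 0.205, 0.0354 and 0.196 in C pools. Its signals in the C pools were 6.3, 2.3 and 8.4, all below the filter at 14.1. It thus passed the filter only through the clenbuterol pools, so that its call is not a fair test of a rise. The size of its change is not known. It was the only one called by limma among the 3 of 6 neutrophil and lymphocyte markers tested, which summed to 3.37 to 4.97 in 24 h pools, 1.91 to 5.86 in 10 D pools and 2.16 to 3.27 in C pools. Of the others, S100a9 overlapped C, and Ptprc, the leukocyte gene for CD45, lay lower in all 24 h pools than in all C pools, at -0.99 (unadjusted p = 0.025, limma adjusted p = 0.49). The 7 endothelial markers summed to 34.5, 27.7 and 29.6 in 24 h pools 1, 2 and 3, 20.3 to 23.5 in 10 D pools and 21.9 to 26.95 in C pools. By this sum all 24 h pools lay above the rest, with pool 1 highest and pool 2 lowest as for Ankrd1, Ankrd2 and Csrp3. Of the single endothelial markers, only Pecam1 and Tie1 had this order of 24 h pools. Cdh5, Kdr and Emcn were lowest in pool 3, Eng was highest in pool 3 and Tek was highest in pool 2. Emcn gave 0.84 (unadjusted p = 0.0045, limma adjusted p = 0.26) and Eng 0.75 (unadjusted p = 0.014, limma adjusted p = 0.41), and none of the 7 was called by limma. The 6 of 7 macrophage and monocyte markers tested summed to 28.3, 20.4 and 19.3 in 24 h pools 1, 2 and 3, against 15.9 to 23.7 in C pools, and the 7 fibroblast and matrix markers to 211.5, 123 and 121, against 148 to 270.5 in C pools. Pool 1, which was highest for Ankrd1, was thus also the highest 24 h pool for both sums. By single marker, Csf1r, Cd14, Lyz2, C1qa, Col1a1, Col1a2, Col3a1, Pdgfra and Dcn were highest in 24 h pool 1. Cd68 and Lum were highest in pool 3, and Adgre1 and Thy1 in pool 2. The 7 satellite cell and myoblast markers summed to 11.8, 8.04 and 11.6 in 24 h pools, against 8.99 to 10.4 in C pools, with pool 2 lowest as for Ankrd2 and Csrp3. Single markers differed. Myod1, Myf5, Cdh15 and Chrna1 were lowest in 24 h pool 2 and Vcam1 in pool 3. Pax7, at 0.688, 1.48 and 0.834, and Megf10, at 1.19, 1.45 and 1.37 in 24 h pools 1, 2 and 3, were highest in pool 2. The part of other cells in the changes of the 6 genes was not tested.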

How the data were processed

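Gene expression of gracilis muscle was measured on 18 Affymetrix arrays, 9 of each chip, for 9 RNA pools in 3 groups. The authors quantified each array with MAS software. The deposited values were intensities on a linear scale, 1 for each probeset, and the array medians differed. The MAS settings, and whether arrays were scaled to each other, are not given in the sources used here, and detection calls were not used. An array with no chip in its title counted as MOE430A, and an equal replicate number as the same pool on both chips. Signals of 0 (9 on each chip) were set to 0.05. Each signal was divided by its array median, as in the study's methods, and taken to log2. Probesets under the 25th percentile of mean signal of their chip were left out of tests, which kept 16969 and 16783. The second chip's copy of 100 probesets present on both was left out. The array medians limit precision, since a dim array leaves low probesets near background.

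Groups were compared in R 4.3.3 with limma 3.58.1 (1 fit per chip over 3 groups, moderated with an intensity trend), and p-values were adjusted by the Benjamini-Hochberg method over both chips, called under 0.1. The fit was tested on simulated data. Probesets were named through the platform annotation, updated by Entrez ID, with 1 symbol for 34945, several for 932 and none for 9160, and no probeset with several symbols was used. Named genes are all members, every called gene of the 6 related lists by its brightest tested probeset, up to 4 genes per list with the smallest F test p, and the 4 genes nearest in level to each of the 3 members of widest range. Probesets or genes shown beyond this rule (other probesets of called genes and of Igf1, and Bag3, Ckm and the cell type markers) were chosen after their values were seen. Members and lists were chosen with earlier results of these data known. Alternatives tried were other scalings, filters, offsets and models, the replicate number as a block, and each pool left out.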

Additional observations from a re-analysis of the deposited data

How the results depend on the processing

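No setting called a member at 10 D against C. Of 450 values of the members under other settings, 434 kept direction and side of the threshold, 11 changed sign and 5 became called, which were those without 24 h pool 2 given above and 1420991_at of Ankrd1 at 24 h with the replicate number as a block (2.42, SE 0.47, limma adjusted p = 0.098). With that block 1 member probeset was called at 24 h against C, and 4 related genes. Same-numbered pools of the 24 h and C groups did not deviate together (correlations from -0.07 to 0.05), and the numbers were not taken as pairs in any comparison. At 10 D against 24 h the correlations were 0.39, 0.56 and 0.1 for pools 1, 2 and 3 on MOE430A. On MOE430B they were 0.01 to 0.16. The p-values of that comparison thus leave out a shared deviation on MOE430A. With that block no member was called at 10 D against 24 h. Leaving out 1 pool called 0 to 2 member probesets at 24 h against C, at 10 D against 24 h and by the F test, with the 2 in each case only without 24 h pool 2. Sign changes were within the standard errors: at 10 D against C, 1420991_at of Ankrd1 was 0.058 with 16 added to the signal and -0.63 to 0.65 with 1 pool left out, 1420992_at of Ankrd1 was -0.15 to 0.39 and 1417872_at of Fhl1 was -0.11 to 0.20. Xirp1 at 24 h was -0.088 to 0.85, 1459003_at of Fhl1 at 10 D against 24 h was -0.35 to 0.18, and Flnc at 10 D against C was -0.22 to 0.27. Ankrd1 1420991_at could not be tested with the filter at the 50th percentile. The 4 related genes called at 24 h became 2 with no filter on dim probesets, 1 with 16 added to the signal, 0 with no intensity trend, 1 by analysis of variance without moderation, 7 with only the 2 groups compared, and 0 to 9 with 1 pool left out (9 without 10 D pool 2, 1 without 10 D pool 3). Calls over all probesets at 24 h, 154, became 52 with no trend, 100 by analysis of variance, 345 with only the 2 groups, and 24 to 432 with 1 pool left out. At 10 D against C, 0 became 2 with adjustment within each chip, 3 with the replicate block and 1 without C pool 2. At 10 D against 24 h, 17 became 40 with quantile normalization, 33 with scaling to the 75th percentile, 5 with no trend, 1 with only the 2 groups, and 1 to 76 with 1 pool left out. The cause of these changes was not tested.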
